A study of Arabidopsis thaliana with 12 samples.

Results

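Root cortex nuclei with the highest DNA content sorted here, 16C, were compared with those of the lowest, 2C. The comparison held 6 of the 12 arrays of the series, which were the 3 arrays whose titles give 16C and the 3 whose titles give 2C, over all 22746 probe sets of the ATH1 array that are not controls. Plants of both groups were 5-day-old Arabidopsis thaliana of the Col-0 ecotype and carried the transgene pCO2:YFP-H2B, a yellow fluorescent histone whose promoter comes from the cortex gene CO2. The 16C group was made of fluorescent nuclei with 16C DNA and the 2C group of fluorescent nuclei with 2C DNA, both released from pooled roots that were grown in continuous light. No untransformed plants or unsorted nuclei were analysed here, so what the sort took along besides cortex was judged only from marker genes. The RNA was nuclear, was amplified in consecutive rounds and was labelled with biotin.

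A 2C nucleus holds the DNA of a diploid cell before replication. In the endocycle a cell copies its DNA again and again without mitosis, and a 16C nucleus has been through such rounds, whereas 2C nuclei are found both in dividing cells of the root tip and in cells that have stopped dividing. In the root, the endocycle starts as cells leave the dividing zone, and the same cells elongate and build a larger wall and vacuole. The machinery that copies DNA (helicase subunits, polymerases, histones) is used in both cycles, while the spindle and the new cross wall are needed only for division.

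Signals are log2 values made by RMA, so a difference of 1 is a doubling. Changes are 16C minus 2C with the moderated standard error (SE) of limma, and a probe set was called at an adjusted p of at most 0.05, by the Benjamini-Hochberg method over all probe sets. Of the 22746 probe sets 3238 were called, which is 14.2%. Of these, 1406 (6.18% of all) were higher in 16C nuclei and 1832 (8.05% of all) lower. The median size was 0.90 for the rises and 0.97 for the falls. A change of at least 4-fold was found for 146 rises and 190 falls. With arrays set to equal means of 10 reference gene probe sets, the balance turned to 1886 higher and 1314 lower, or 58.9% higher against 43.4% in the values as deposited. That scaling moved the median change of all probe sets to 0.16, against 0.03. Directions of small changes therefore depend on the scaling, and they are given below relative to the arrays as deposited. The 16C and 2C arrays did not overlap for 8253 probe sets, or 36.3%.

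The arrays were not equally alike. Those of 16C replicates 1 and 2 correlated at 0.9963 across probe sets, and each of them at 0.9823 with replicate 3. Between pairs of 2C arrays the correlation was 0.9374 to 0.9735. The median SD of a probe set was 0.12 in 16C and 0.20 in 2C. The labels call all 3 arrays of a class biological replicates without naming plants or sorts, so p-values rest on an array-to-array spread that may be partly technical. With 16C replicates 1 and 2 averaged to 1 value, 1577 probe sets were called. Without 16C replicate 1 or 16C replicate 2 the count was 1688 or 1598, and without 16C replicate 3 it was 2186, of which 925 were rises. A fit on the 6 arrays alone called 2059.

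Control probe sets differed as well, as the plot of control measures shows. For actin, the 3' probe set minus the 5' one gave 3.80 ± 0.17 in 16C arrays and 4.55 ± 0.16 in 2C arrays (log2, SD, n = 3 each). The same difference for GAPDH was 5.58 ± 0.09 in 16C and 4.85 ± 0.38 in 2C, which is the opposite order. The spiked bacterial poly-A controls had mean signals of 8.98 ± 0.37 in 16C and 10.87 ± 0.52 in 2C. For all of these measures the arrays of 16C and 2C did not overlap. When this actin measure was a covariate, 0 probe sets were called by limma, with 1569 at an unadjusted p below 0.05. In that fit the 3238 changes shrank to a median of 0.77 with a median SE of 0.49, against 0.94 and 0.20 without it, and 3081 kept their sign. With the poly-A mean as a covariate 523 were called. The part of these measures in the changes below was not tested beyond these fits.

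**Figure D1:**
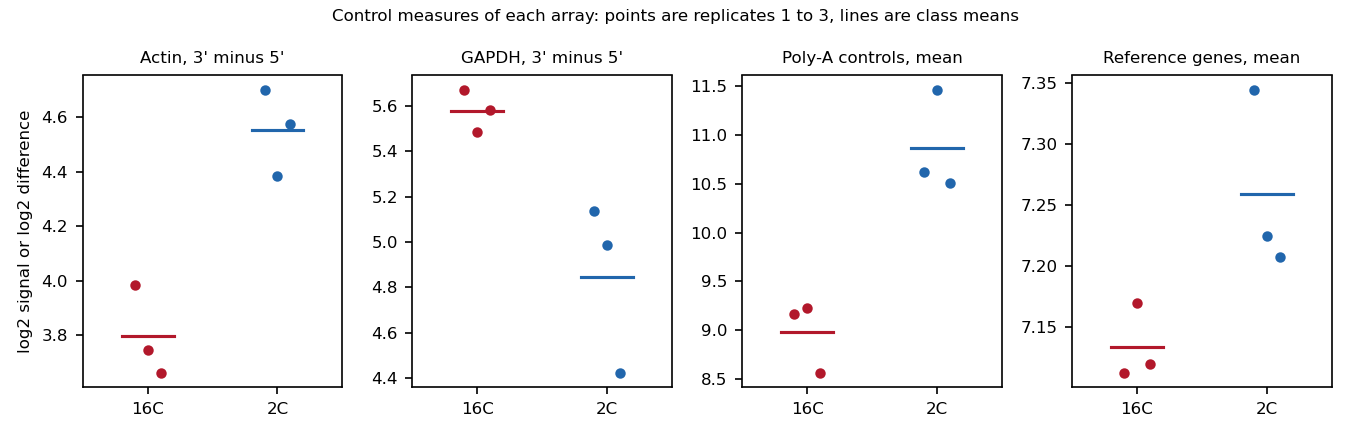
Control measures of the arrays of 16C nuclei (left in each panel) and 2C nuclei (right), as log2 differences between the 3' and 5' probe sets or mean log2 signals; points are arrays and lines are class means. The actin difference averaged 3.80 in 16C and 4.55 in 2C, the GAPDH difference 5.58 and 4.85 and the poly-A controls 8.98 and 10.87.

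A single gene was named for 13513 probe sets. With the brightest probe set standing for a gene, 13356 genes were measured, of which 1702 (12.7%) were called, 769 (5.76%) higher and 933 (6.99%) lower. A symbol other than the locus code was on record for 1535 of them, and of these 222 (14.5%) were called, 75 (4.89%) higher and 147 (9.58%) lower. The 16C and 2C arrays did not overlap in 34.9% of all genes and in 35.8% of those with a symbol. Among the 100 largest rises 7 had a symbol, and among the 100 largest falls 21. The others carried only a locus code, to which the tables used here give no function. Every gene named below has values from 1 probe set in each array.

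AT1G51270 had the largest rise. Its signal was 10.34, 10.39 and 10.09 in the 3 arrays of 16C, against 5.31, 6.40 and 7.15 in those of 2C. The change was 3.99 ± 0.36 (SE, adjusted p = 0.000283), or 15.9-fold. All 16C arrays stood far above all 2C arrays, and a second probe set of the gene was also higher, with a change of 1.12. AT5G24080 had 8.70, 8.83 and 7.78 in 16C, against 4.55, 4.57 and 4.77 in 2C, a change of 3.80 ± 0.29 (adjusted p = 0.000177). AT1G17960 was bright in both groups, with 12.03, 12.03 and 12.49 in 16C and 8.94, 8.49 and 8.94 in 2C, a change of 3.39 ± 0.22 (adjusted p = 6.26e-05). The groups did not overlap in either gene, and each of these genes passed in all 12 fits that left out 1 array.

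Other large rises among locus codes were those of AT3G51660, AT1G51820, AT5G49780, AT3G09960 and AT4G26470, with changes of 3.49, 3.14, 3.12, 3.03 and 2.92. AT2G21550, AT5G25440, AT5G38350, AT1G22430, AT5G38030 and AT3G56080 changed by 2.91, 2.83, 2.74, 2.71, 2.69 and 2.63. All of these passed in each fit that left out 1 array. A second probe set of AT5G49780 changed by 0.77 and was not called. AT5G47740 and AT5G19240 changed by 3.15 and 2.69 and missed the threshold without 16C replicate 1 (adjusted p = 0.0603 and 0.0586) or 16C replicate 2 (adjusted p = 0.0627 and 0.0636). AT1G14120 changed by 3.06 and missed it without 16C replicate 1 or 3 (adjusted p = 0.0517 and 0.0547). AT1G61550 changed by 2.68 and missed it without 2C replicate 1, 2C replicate 2 or 16C replicate 3 (adjusted p = 0.0649, 0.0605 and 0.0733). AT5G12340 changed by 2.62 and passed in 3 of 12 such fits (highest adjusted p = 0.122, without 16C replicate 2).

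**Figure D2:**
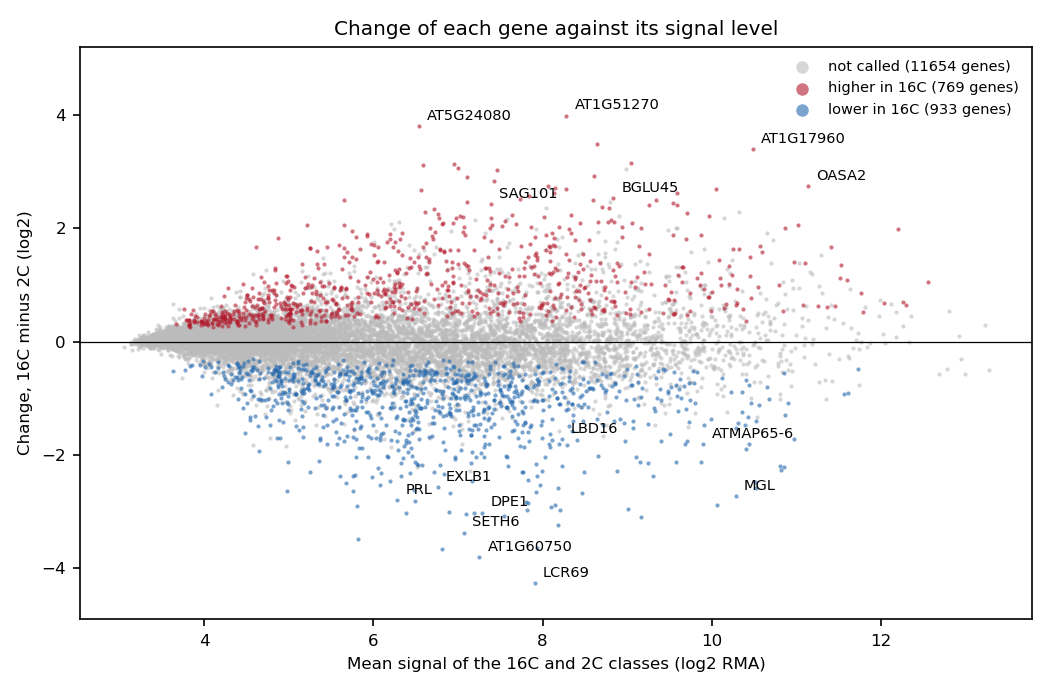
Change of each of the 13356 genes (16C minus 2C, log2) against its mean signal in both classes (log2 RMA); points are genes, in red where called higher in 16C (769), in blue where called lower (933) and in grey where not called (11654). The largest rise is AT1G51270 with 3.99 and the largest fall LCR69 with -4.26.

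Among genes with a symbol, OASA2 had the largest rise. The gene table lists it as an isoform of O-acetylserine (thiol) lyase, the enzyme that makes cysteine. Its signal was 12.42, 12.45 and 12.63 in 16C, against 9.46, 9.47 and 10.36 in 2C, a change of 2.74 ± 0.25 (adjusted p = 0.000283), or 6.7-fold. The transcript was bright in both groups, and the groups did not overlap. Both other enzymes of sulfur amino acids described here fell. MGL, methionine gamma-lyase, which breaks methionine down, had 9.03, 8.89 and 8.83 in 16C and 11.67, 11.80 and 11.48 in 2C, and fell by 2.73 ± 0.21 (adjusted p = 0.000177). CBL, cystathionine beta-lyase, a step of methionine synthesis, had 8.52, 8.47 and 8.58 in 16C and 10.34, 10.53 and 9.95 in 2C, and fell by 1.75 ± 0.22 (adjusted p = 0.00111). In each of the 3 genes both groups were tight relative to the distance between them. They were put together after their values were seen.

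BGLU45, a beta-glucosidase of the kind that releases lignin precursors from their sugar, followed among the rises. It had 10.00, 10.04 and 10.26 in 16C and 7.37, 7.53 and 7.82 in 2C, a change of 2.53 ± 0.33 (adjusted p = 0.00123). SAG101, a partner of EDS1 in plant immunity first described in senescing leaves, had 8.67, 8.27 and 8.86 in 16C and 5.30, 6.41 and 6.81 in 2C, a change of 2.43 ± 0.37 (adjusted p = 0.00266). For both genes the lowest 16C array lay above the highest 2C array. Rises of 2.00, 1.87, 1.70 and 1.66 were those of GLX2-4, a glyoxalase, pEARLI4, MEF8S, related to an editing factor of mitochondrial RNA, and ZW9. PRN, a pirin, EEL, a bZIP factor of seeds, and SFP1, a sugar transporter, rose by 1.40, 1.39 and 1.31. These 7 passed in all 12 fits that left out 1 array, but ZW9 missed the threshold with the 6 arrays alone (adjusted p = 0.0565).

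Several other rises leaned on single arrays. PRA1.B6, a prenylated RAB acceptor of membrane traffic, changed by 2.28 and missed the threshold without any one of the 16C arrays (adjusted p = 0.0571, 0.0548 and 0.0673 without replicates 1, 2 and 3). CCOAMT, caffeoyl-CoA 3-O-methyltransferase, changed by 1.65 and missed it without 16C replicate 3 or 2C replicate 1 (adjusted p = 0.0576 and 0.0632). CHLM, a methyltransferase of chlorophyll synthesis, changed by 1.57 and passed in 7 of 12 fits (highest adjusted p = 0.0973, without 16C replicate 1). AGO7, an Argonaute protein of small RNA pathways, changed by 1.23 and missed the threshold without 16C replicates 1 or 3 or 2C replicate 2 (adjusted p = 0.0638, 0.0673 and 0.0613). CuAO1, a copper amine oxidase that oxidises polyamines, changed by 1.21 and missed it without 16C replicate 1 (adjusted p = 0.0518).

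**Figure D3:**
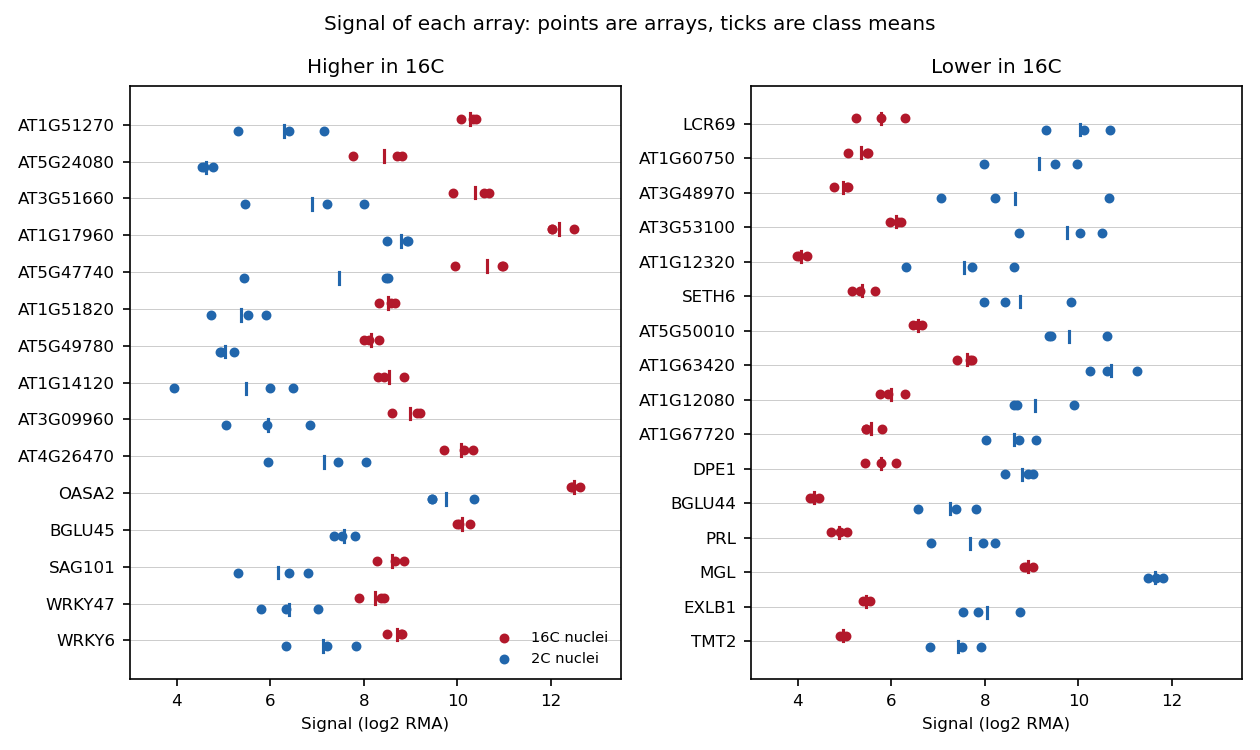
Signal (log2 RMA) of every array of 16C (red) and 2C (blue) for the 10 largest rises (left) and falls (right) and further genes with a symbol; points are arrays and ticks are class means. In each gene shown the 3 arrays of 16C and the 3 of 2C do not overlap, for example 10.09 to 10.39 against 5.31 to 7.15 for AT1G51270.

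LCR69, a gene of small cysteine-rich proteins akin to plant defensins, had the largest fall. Its signal was 5.79, 5.24 and 6.30 in 16C, against 10.68, 10.12 and 9.32 in 2C. The change was -4.26 ± 0.44 (adjusted p = 0.000387), which is 19.2-fold lower. Of 12 measured genes of its family 1 was called, beside 12.7% of all genes. LCR68, with means of 6.0 in 16C and 8.28 in 2C, changed by -2.28 and did not pass (adjusted p = 0.0728). The other 10 had changes between -0.23 and 0.28. Fewer cells of a kind that makes a transcript and less of the transcript per nucleus cannot be told apart in these sorted pools, here or below.

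SETH6, named from a screen for pollen germination mutants, had 5.32, 5.17 and 5.66 in 16C and 9.84, 8.43 and 7.99 in 2C, and fell by 3.37 ± 0.46 (adjusted p = 0.00144). WNK9, a kinase of the WNK family, had 6.38, 6.42 and 6.21 in 16C and 9.21, 9.13 and 9.58 in 2C, and fell by 2.97 ± 0.34 (adjusted p = 0.000602). BAT1, an acyltransferase that acts on brassinosteroids, had 6.55, 6.52 and 6.83 in 16C and 10.68, 9.04 and 8.95 in 2C, and fell by 2.92 ± 0.44 (adjusted p = 0.00236). In all 3 genes the 16C arrays sat close together at a low level while the 2C arrays spread more widely above them. FMO, listed as a flavin monooxygenase, fell by 2.59 ± 0.27 (adjusted p = 0.000409).

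Locus codes made up most of the remaining falls. AT1G60750, AT3G48970, AT3G53100 and AT1G12320 had changes of -3.80, -3.67, -3.64 and -3.48. AT3G48970 had 2C arrays from 7.07 to 10.65 and an adjusted p of 0.055 when only the 6 arrays were fitted, against 0.0103. AT5G50010, AT1G63420, AT1G12080, AT1G67720, AT5G63710, AT1G71695 and AT1G77020 changed by -3.24, -3.10, -3.08, -3.05, -3.03, -3.02 and -3.01. AT5G03610, AT1G69080 and AT1G61660 changed by -2.98, -2.96 and -2.89. All of these and the symbol genes of the paragraph on SETH6 passed in each fit that left out 1 array. Of the 20 largest rises and 20 largest falls together, 35 did so.

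The measured genes of DNA replication were mostly called lower in 16C, but they were 5 of 57 listed genes. Of the 5, 4 fell, 0 rose and 1 did not pass, beside 6.99% of all genes called lower. The median change was -1.75, against 0.05 over all genes. PRL, also called MCM7, a subunit of the helicase that opens DNA at replication forks, had 5.05, 4.90 and 4.71 in 16C and 8.23, 7.96 and 6.85 in 2C, and fell by 2.80 ± 0.28 (adjusted p = 0.00037), or 6.9-fold. POLA3, a primase subunit of DNA polymerase alpha, had 5.50, 5.42 and 5.09 in 16C and 7.58, 7.84 and 6.33 in 2C, and fell by 1.91 ± 0.32 (adjusted p = 0.00399). In both genes 2C replicate 3 was the lowest of its class and still above every 16C array.

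POLD3, a subunit of DNA polymerase delta, had 4.47, 4.50 and 4.50 in 16C and 6.65, 6.65 and 5.40 in 2C, and fell by 1.75 ± 0.30 (adjusted p = 0.00439). ICU2, the subunit of polymerase alpha that adds nucleotides, had 3.81, 3.94 and 3.92 in 16C and 6.08, 5.39 and 4.68 in 2C, and fell by 1.49 ± 0.28 (adjusted p = 0.00644). The 16C signals of both lay below the median of the arrays, which was 5.28 to 5.32. So did all those of PRL and that of POLA3 in 16C replicate 3. No measure of background was used. PSF2, of the GINS complex at forks, had means of 4.09 in 16C and 4.55 in 2C and did not pass (adjusted p = 0.147). The 4 falls were also called with only the 6 arrays, with 16C replicates 1 and 2 averaged and under both other scalings, and 1 of them (PRL) with the poly-A covariate.

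Of 7 histone genes 1 was called lower, beside 6.99% of all genes. The means of all 7 were lower in 16C, as were those of 5636 of all 13356 genes, but with the actin covariate 4 of the 7 were above 0, with a median of 0.07 in place of -0.74. With the 6 arrays alone or 16C replicates 1 and 2 averaged 0 passed, and with the replicate number as a block 3. HTB4, an H2B gene, had 7.62, 7.42 and 7.20 in 16C and 8.67, 8.05 and 7.90 in 2C, and fell by 0.79 ± 0.20 (adjusted p = 0.0235). It missed the threshold without 16C replicate 2 or 3 (adjusted p = 0.0729 and 0.0823), and the groups did not overlap. HTB1, HTB11, HTB2 and HON4 changed by -0.91, -0.89, -0.60 and -0.74, with adjusted p of 0.0656, 0.103, 0.131 and 0.115. The transgene in both groups is itself an H2B fusion, and whether its transcript reaches any of these probe sets was not tested.

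Of 67 listed mitotic genes 8 were measured. Of these 1 fell and 7 did not pass, beside 6.99% of all genes called lower. ATMAP65-6, of a family of microtubule-associated proteins, had 9.0, 8.83 and 9.17 in 16C and 11.38, 10.72 and 10.32 in 2C. It fell by 1.81 ± 0.28 (adjusted p = 0.00293), with no overlap. AUR1, an Aurora kinase, changed by -0.81 ± 0.30 (adjusted p = 0.0974) and AUR2 by 0.09 ± 0.52 (adjusted p = 0.922). Of 41 listed endocycle genes 2 were measured, and 0 of them passed. BIN4, part of the topoisomerase VI complex needed for high ploidy, changed by -0.38 ± 0.31 (adjusted p = 0.443), and SIM by 0.05 ± 0.30 (adjusted p = 0.932).

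Of the chromatin genes 8.33% were called and of the 5 genes of DNA repair and cohesion 20.0%, beside 12.7% of all genes. CHR17, a chromatin remodelling ATPase, was the 1 called gene of 12 and fell by 1.03 ± 0.20 (adjusted p = 0.00779), but missed the threshold with the 6 arrays alone (adjusted p = 0.0503). Of 14 genes of recombination, telomeres and topoisomerases, a group formed after values were seen, 4 were called lower and 2 higher, beside 6.99% and 5.76% of all genes. With the 6 arrays alone 3 of the 14 were called, and with 16C replicates 1 and 2 averaged 1. ZYP1b, of the synaptonemal complex of meiosis, fell by 1.21 ± 0.24 (adjusted p = 0.00863), but missed the threshold with the 6 arrays alone (adjusted p = 0.0647). TOP3A, a topoisomerase, changed by -1.80 and RECQI1, a RecQ helicase, by -1.04, and these missed the threshold without any one of the 16C arrays (adjusted p = 0.0669, 0.0824 and 0.0913 for TOP3A, and 0.0549, 0.074 and 0.0625 for RECQI1, without replicates 1, 2 and 3). TOP3A also missed it without 2C replicate 1 or 2 (adjusted p = 0.0809 and 0.0653), and RECQI1 without 2C replicate 2 (adjusted p = 0.0622). RECQI1 was also the 1 called gene of 5 in the list of DNA repair and cohesion. RAD4 changed by -0.56 and passed in 7 of 12 fits that left out 1 array (highest adjusted p = 0.115, without 16C replicate 2). ATLIG4, DNA ligase IV, changed by 0.52 and passed in 7 (highest 0.0865, without 16C replicate 3). STN1, a telomere protein, changed by 0.57 and passed in 2 (highest 0.144, without 16C replicate 3).

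**Figure D4:**
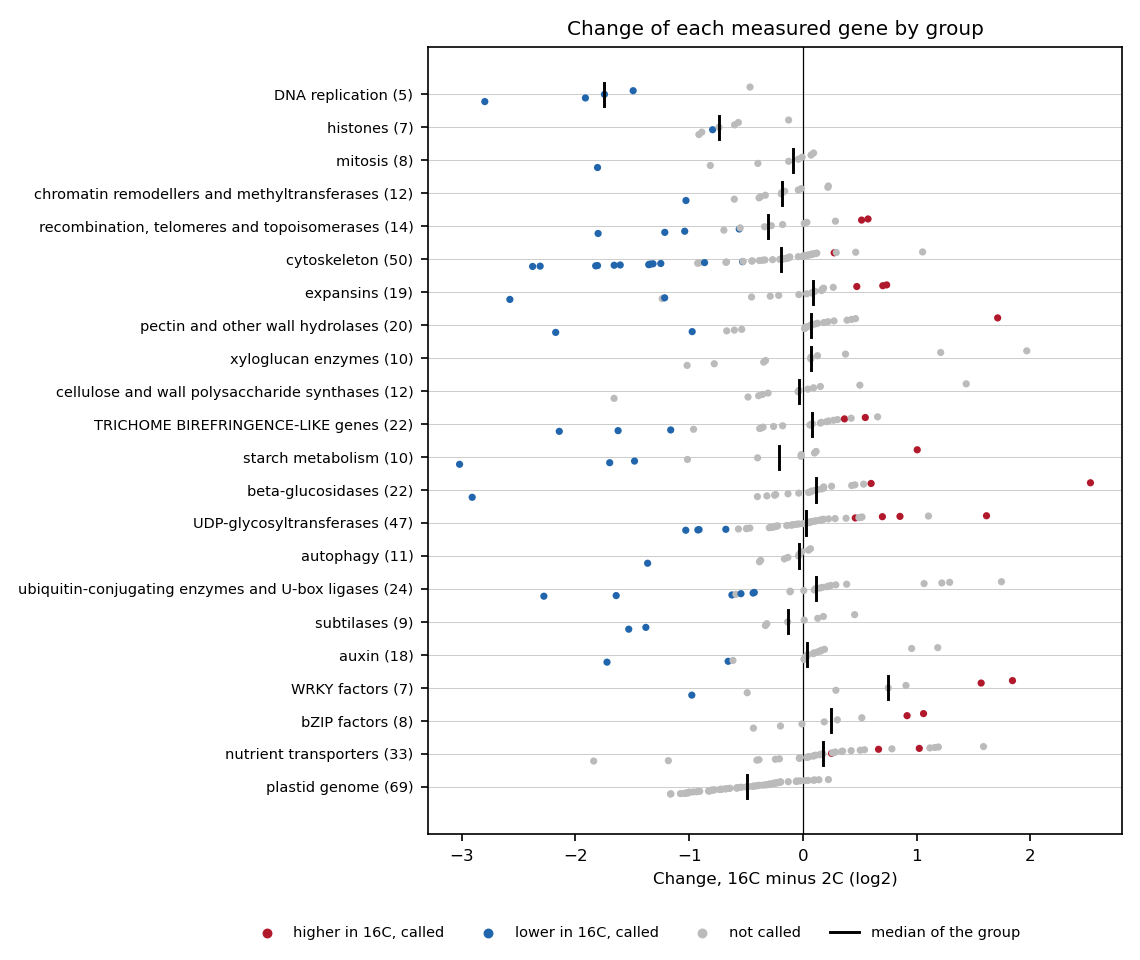
Change (16C minus 2C, log2) of each measured gene in 22 groups, with the number measured in parentheses; red and blue points are genes called higher and lower in 16C, grey points were not called, and black ticks are group medians. The median was -1.75 for DNA replication, -0.19 for the cytoskeleton and 0.75 for WRKY factors (-0.32 with the actin covariate), against 0.05 over all genes.

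The cytoskeleton group, formed after values were seen, held 50 measured genes, of which 13 fell and 1 rose, beside 6.99% and 5.76% of all genes. Its median change was -0.19. TRM24, of a family that recruits proteins to cortical microtubules, had 4.33, 4.48 and 4.91 in 16C and 7.28, 6.92 and 6.65 in 2C, and fell by 2.38 ± 0.22 (adjusted p = 0.000283). VIIIB, a class VIII myosin, had 6.79, 6.78 and 6.28 in 16C and 9.03, 9.30 and 8.45 in 2C, and fell by 2.31 ± 0.35 (adjusted p = 0.00268). SPK1, an activator of ROP GTPases that acts on actin and cell shape, had 6.32, 6.33 and 5.45 in 16C and 7.61, 7.24 and 7.27 in 2C, and fell by 1.34 ± 0.25 (adjusted p = 0.00674). The 16C arrays of all 3 lay below the 2C arrays.

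Other called members leaned on single arrays. The actin ACT11 changed by -1.35 and missed the threshold without 16C replicate 1 or 3 (adjusted p = 0.0547 and 0.057), and the LIM protein WLIM2a changed by -1.82 and missed it without 16C replicate 2 or 3 (adjusted p = 0.0539 and 0.0578). The tubulins TUB9 and TUB6 changed by -1.36 and -1.32 and passed in 8 and 9 of 12 fits (highest adjusted p = 0.102 without 16C replicate 2, and 0.0761 without 16C replicate 3). The NET protein NET1C changed by -1.61 and passed in 1 of 12 (highest adjusted p = 0.136, without 16C replicate 2). FU changed by -1.66, missed the threshold without 16C replicate 2 or 3 (adjusted p = 0.0533 and 0.0514), and had a second probe set with 0.27 that was not called. XIC, a class XI myosin, was the 1 gene called higher, with 0.28, and passed in 7 of 12 (highest adjusted p = 0.0875, without 16C replicate 1). KICP-02, a kinesin-like gene outside the group's name pattern, fell by 2.15 ± 0.29 (adjusted p = 0.00153). With 16C replicates 1 and 2 averaged 5 genes of the group were called lower, and with the 6 arrays alone 7. Of 12 IQD genes, which bind calmodulin and often sit on microtubules, 2 were called, beside 12.7% of all genes. They were IQD28 with a change of -1.15 and IQD24 with -0.66. These passed in 8 and 6 of 12 fits that left out 1 array (highest adjusted p = 0.0817 without 16C replicate 2, and 0.121 without 16C replicate 1). The probe set of iqd33, written in lower case in the gene table and so outside that list, changed by -2.19 and passed in 8 (highest adjusted p = 0.0788, without 16C replicate 2).

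Of 19 expansins, proteins that loosen the wall, 3 were called higher and 2 lower, beside 5.76% and 6.99% of all genes. With the 6 arrays alone these counts were 2 and 1. EXPA7, an expansin of root hair cells, had 5.33, 5.22 and 5.07 in 16C and 4.35, 4.46 and 4.60 in 2C, a rise of 0.74 ± 0.12 (adjusted p = 0.00335). EXPA18, also of root hair cells, had 6.07, 6.30 and 6.13 in 16C and 5.37, 5.50 and 5.53 in 2C, a rise of 0.70 ± 0.11 (adjusted p = 0.00264). Neither gene's groups overlapped. EXPB2 changed by 0.47 (adjusted p = 0.0429) and passed in 3 of 12 fits that left out 1 array (highest adjusted p = 0.13, without 2C replicate 1).

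EXLB1, an expansin-like gene, had 5.55, 5.45 and 5.41 in 16C and 7.86, 8.75 and 7.53 in 2C, and fell by 2.58 ± 0.27 (adjusted p = 0.000412). EXLA2 changed by -1.22 and missed the threshold without 16C replicate 1 or 2 (adjusted p = 0.0724 and 0.0658). Of 20 wall hydrolases and wall proteins, 1 rose and 2 fell, beside 5.76% and 6.99% of all genes. All 3 were endoglucanases of family GH9. GH9C1 had 6.71, 6.72 and 5.92 in 16C and 4.97, 4.34 and 4.90 in 2C, a rise of 1.71 ± 0.24 (adjusted p = 0.00189). GH9B8 went the other way, with 5.78, 5.50 and 5.80 in 16C and 8.24, 7.59 and 7.78 in 2C, and fell by 2.17 ± 0.20 (adjusted p = 0.000283). GH9B7 changed by -0.97 and passed in 2 of 12 fits that left out 1 array (highest adjusted p = 0.144, without 16C replicate 3).

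Of 10 xyloglucan enzymes 0 passed, with changes between -1.02 and 1.97, and of 12 synthases of cellulose and other wall polysaccharides 0 passed. EXGT-A3, which cuts and rejoins xyloglucan, changed by -1.02 (adjusted p = 0.0535), and CSLC04, a glucan synthase, by -1.66 (adjusted p = 0.104), with 2C arrays from 7.74 to 10.59. Of 22 TBL genes, a family that acetylates wall polysaccharides, 3 were called lower and 2 higher, beside 6.99% and 5.76% of all genes. The TBL group was formed after values were seen. With the 6 arrays alone, or 16C replicates 1 and 2 averaged, 3 were lower and 0 higher. TBL28, TBL38 and TBL36 fell by 2.14, 1.62 and 1.16, while TBL20 and TBL21 changed by 0.37 and 0.55 and passed in 9 and 8 of 12 fits that left out 1 array (highest adjusted p = 0.0784 and 0.121, both without 16C replicate 1). Of 14 listed class III peroxidases 5 were measured and 0 passed, AT5G64120 (PRX71) being nearest with a change of 1.39 (adjusted p = 0.0869). Peroxidases outside that list, such as any given here only by a locus code, were not counted. Among the 5 measured of 107 listed genes of suberin, lignin and phenylpropanoids 0 passed. HCT, an enzyme of lignin synthesis, changed by -1.48 (adjusted p = 0.0725). CCOAMT and BGLU45, both called higher as given above, fell outside this list.

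Starch genes were called on both sides. DPE1, the plastid disproportionating enzyme of starch breakdown, had 5.79, 5.44 and 6.09 in 16C and 9.03, 8.93 and 8.42 in 2C, and fell by 3.02 ± 0.32 (adjusted p = 0.000426). The locus AT4G24450, which shares the symbol PWD and the synonym phosphoglucan water dikinase with AT5G26570 in the gene table, had 4.21, 4.06 and 3.75 in 16C and 6.0, 5.70 and 5.42 in 2C, and fell by 1.70 ± 0.16 (adjusted p = 0.000309). The PWD at AT5G26570 changed by -1.48 and missed the threshold without 16C replicate 1 or 2 (adjusted p = 0.0504 and 0.0505). QQS, a regulator of leaf starch, changed by 1.01 and passed in 4 of 12 fits (highest adjusted p = 0.118, without 16C replicate 3). This group of 10 genes was formed after values were seen. In all, 3 were lower and 1 higher, beside 6.99% and 5.76% of all genes. With 16C replicates 1 and 2 averaged 2 were lower and 0 higher.

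TMT2, which loads sugars into the vacuole, had 5.03, 4.91 and 4.98 in 16C and 7.93, 7.52 and 6.83 in 2C, and fell by 2.46 ± 0.26 (adjusted p = 0.000431). Its relatives TMT1 and TMT3 changed by 0.58 and 0.04 and did not pass. These TMT genes were grouped after values were seen. Of 22 beta-glucosidases 2 were called higher and 1 lower, which is near the 12.7% called over all genes. BGLU44 had 4.33, 4.27 and 4.46 in 16C and 7.82, 7.38 and 6.58 in 2C, and fell by 2.91 ± 0.25 (adjusted p = 0.000237), opposite to BGLU45. BGLU25 changed by 0.60 and passed in 4 of 12 fits that left out 1 array (highest adjusted p = 0.133, without 2C replicate 1). PYK10, a highly abundant root beta-glucosidase, had means of 13.07 in 16C and 12.54 in 2C and did not pass (adjusted p = 0.27).

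Protein turnover was looked at through ubiquitin, autophagy and protease genes. Of 24 ubiquitin-conjugating enzymes and ligases, a group formed after values were seen, 6 fell and 0 rose, beside 6.99% and 5.76% of all genes. The group's median change was 0.11, or -0.18 with the actin covariate. ATL8, a RING-type ubiquitin ligase, had 7.66, 7.68 and 7.87 in 16C and 9.19, 10.46 and 10.39 in 2C, and fell by 2.28 ± 0.36 (adjusted p = 0.00303). UBC29, a ubiquitin-conjugating enzyme, had 6.52, 6.31 and 6.18 in 16C and 8.29, 7.73 and 7.90 in 2C, and fell by 1.64 ± 0.19 (adjusted p = 0.00063). PUB49, UBC28, UBC27 and UBC22 had smaller changes of -0.62, -0.54, -0.44 and -0.43 and passed in 10, 9, 7 and 8 of 12 fits that left out 1 array (highest adjusted p = 0.0628, 0.0697, 0.0774 and 0.0887, without 16C replicates 1, 2, 3 and 3). With scaling to reference genes 2 of the 6 falls were called, and with cyclic loess 3.

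Of 11 autophagy genes 1 fell, beside 6.99% of all genes. ATG8B, of the ubiquitin-like family that coats autophagosomes, had 9.31 in each 16C array and 11.00, 10.86 and 10.17 in 2C, and fell by 1.37 ± 0.20 (adjusted p = 0.00221). The other 10 had changes between -0.38 and 0.07. Of 9 subtilases, secreted serine proteases, 2 fell, beside 6.99% of all genes. SBT3.12 had 5.73, 5.71 and 5.90 in 16C and 7.26, 7.24 and 6.98 in 2C, and fell by 1.38 ± 0.14 (adjusted p = 0.0004). SBT4.12 changed by -1.53 and missed the threshold without any one 16C array (adjusted p = 0.053, 0.0633 and 0.0881 without replicates 1, 2 and 3) or without 2C replicate 3 (adjusted p = 0.0598). Of 29 serine carboxypeptidase-like genes, a group formed after values were seen, 3 fell and 1 rose. This was 13.8% called, which is near the 12.7% over all genes. Tetraspanins, membrane proteins of microdomains and also a group formed after values were seen, had 3 calls among 15 genes, beside 12.7% of all genes. TET6 fell by 2.37 ± 0.24 and TET5 fell by 2.17 ± 0.22 (adjusted p = 0.00037 for each). TET12 changed by 0.43 and passed in 6 of 12 fits that left out 1 array (highest adjusted p = 0.101, without 16C replicate 2).

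Regulators moved singly. Of 7 WRKY factors 2 were called higher and 1 lower, beside 5.76% and 6.99% of all genes. Their median change was 0.75, but -0.32 with the actin covariate, where 5 of the 7 were below 0. WRKY47 had 8.44, 8.38 and 7.89 in 16C and 5.81, 6.34 and 7.02 in 2C, a rise of 1.84 ± 0.31 (adjusted p = 0.00448). WRKY6, a factor of senescence and phosphate responses, had 8.79, 8.81 and 8.50 in 16C and 6.34, 7.22 and 7.84 in 2C, a change of 1.57 ± 0.34 (adjusted p = 0.014), which missed the threshold without 16C replicate 1 or 2 (adjusted p = 0.0533 and 0.0555). ZAP1, also called WRKY1, fell by 0.98 ± 0.19 (adjusted p = 0.00782), but missed the threshold with the 6 arrays alone (adjusted p = 0.0524), as did WRKY6 (adjusted p = 0.055). Among 8 measured genes of the bZIP list 2 were called higher, beside 5.76% of all genes. These were BZIP24 with 0.92 and BZIP60, a factor of endoplasmic reticulum stress, with 1.06. EEL, called higher as given above, fell outside the list, and so did bZIP44. The latter was called lower but missed the threshold without any one 16C array (adjusted p = 0.0521, 0.063 and 0.0813 without replicates 1, 2 and 3). BZIP60 missed the threshold without 16C replicate 1 or 2 (adjusted p = 0.0841 and 0.0976) or 2C replicate 1 or 2 (adjusted p = 0.0757 and 0.0592).

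Of 18 measured auxin genes, from a list of 220, 2 were called lower, beside 6.99% of all genes. LBD16, a factor of lateral root founding, had 7.11, 7.17 and 7.82 in 16C and 9.84, 9.08 and 8.35 in 2C, and fell by 1.72 ± 0.32 (adjusted p = 0.00653). With the 6 arrays alone it missed the threshold (adjusted p = 0.0542), and 0 auxin genes were called. YUC6, an enzyme of auxin synthesis, changed by -0.66 and passed in 7 of 12 fits that left out 1 array (highest adjusted p = 0.106, without 16C replicate 1). BRL1, a brassinosteroid receptor, fell by 0.68 ± 0.11 (adjusted p = 0.00394) as the 1 called gene of 4 for gibberellin and brassinosteroid. SPT was 1 of 2 measured genes in a list of 35 bHLH factors chosen by name, and bHLH genes under other names were not counted. It changed by -0.75 and passed in 8 of 12 (highest adjusted p = 0.0921, without 16C replicate 2). Of 6 cytokinin genes and 3 of ethylene and jasmonate, 0 passed.

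The remaining lists held few calls. Their counts stand beside 5.76% of all genes called higher and 6.99% called lower. Of 33 nutrient transporters 3 were called higher: AT1G72125 (NPF5.13), of the nitrate and peptide transporter family, rose by 1.02 ± 0.16 (adjusted p = 0.00315), SAG29, the sugar exporter SWEET15, changed by 0.67 and NRAMP5, of a metal transporter family, by 0.25, and these passed in 7 and 1 of 12 fits that left out 1 array (highest adjusted p = 0.09 without 16C replicate 2, and 0.125 without 16C replicate 3). Of 47 UDP-glycosyltransferases, a group formed after values were seen, 4 were higher and 4 lower. UGT76D1 changed by 1.61 and UGT73B1 by -1.03, and UGT73B1 missed the threshold without 16C replicate 2 (adjusted p = 0.0515). CYP71B34 was the 1 called of 22 cytochromes P450, with 0.79, and missed the threshold without 16C replicate 1 (adjusted p = 0.052). GSTU22, the 1 called of 11 tau glutathione transferases, changed by 0.73 and passed in 2 of 12 fits (highest adjusted p = 0.138, without 16C replicate 3). GLR2.8, the 1 called of 8 glutamate receptor-like channels, changed by 0.47 and passed in 9 of 12 (highest adjusted p = 0.0793, without 16C replicate 2). RRP41, of the RNA exosome, changed by -0.70 as the 1 called of 7 genes of ribosome assembly and passed in 8 of 12 (highest adjusted p = 0.0936, without 16C replicate 3). Among 8 redox genes ROXY2, a glutaredoxin, fell by 0.53 ± 0.11 (adjusted p = 0.00918), and PRXIIF, a mitochondrial peroxiredoxin, changed by -0.36 and passed in 3 of 12 (highest adjusted p = 0.148, without 16C replicate 2). Among 2 cytosolic ribosomal proteins, 2 genes of heat shock and folding and 1 NAC factor 0 passed. The same held for the 6 measured genes of a list of receptor-like kinases with symbols. That list was made by name. It left out BRL1, called lower as given above, and any receptor-like kinase given here only by a locus code. Of 8 aldehyde dehydrogenases 0 passed, with ALDH2C4 at 1.08 (adjusted p = 0.0513).

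The labelled tissue was checked against marker genes. For cortex, JKD had means of 5.70 in 16C and 5.51 in 2C, and AT1G62500, the locus taken here for CO2, 4.14 in 16C and 4.03 in 2C, below the array median of 5.28 to 5.36 in these classes. The gene whose promoter marked the nuclei was thus dim on the arrays, and its change of 0.11 did not pass (adjusted p = 0.738). Together the 2 cortex genes averaged 4.83 to 4.97 in 16C arrays and 4.61 to 5.04 in 2C arrays. Of 8 listed epidermis and root hair markers 2 were measured, EXPA7 and EXPA18. Both rose, as given above, and their mean was 5.60 to 5.76 in 16C and 4.86 to 5.06 in 2C. In 2C arrays that mean lay below the array median, and EXPA7 lay close to the median in 16C too. The endodermis list was measured by GSO1 alone, with 5.00 in 16C and 4.82 in 2C (adjusted p = 0.566). The lateral root list was measured by LBD16, lower in 16C but not called with the 6 arrays alone, as given above. The shoot list was measured by LHCB4.1, with 8.27 in 16C and 8.98 in 2C (adjusted p = 0.279). No listed gene of stele, root cap or stem cell niche had a single-gene probe set. The part of other cell types in the changes was not tested.

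None of 69 measured plastid genome transcripts passed in the limma fit. A lower mean in 16C was found for 63 of them, beside 5636 of all 13356 genes, with a median change of -0.49. With the actin covariate the direction turned, with 61 of 69 above 0 and a median of 1.06, and 0 passed there too. The mean of the list was 7.15 to 7.81 in 16C arrays and 7.03 to 8.75 in 2C arrays, so the classes overlapped. The smallest p belonged to ndhK, with a change of -0.82 ± 0.35 (adjusted p = 0.147). Calls were spread over all 5 nuclear chromosomes, with 225 rises and 270 falls among 3411 genes of chromosome 1 and 119 and 112 among 2169 of chromosome 2.

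**Figure D5:**
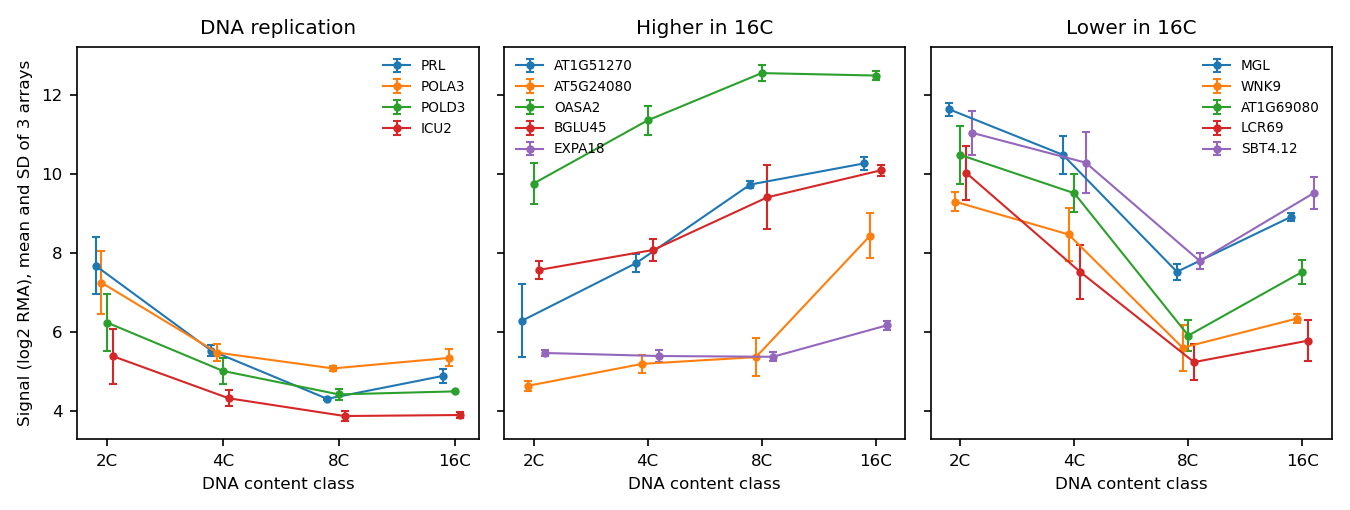
Mean signal (log2 RMA, with SD of 3 arrays) in the 4 DNA content classes for genes of DNA replication (left), genes higher in 16C (middle) and genes lower in 16C (right). PRL was at 5.52 in 4C and AT5G24080 at 5.36 in 8C, while MGL was lower in 8C (7.52) than in 16C (8.92).

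The classes between the extremes, 4C and 8C, were used to place these changes. Of the 1406 rises, 540 had both intermediate means between those of 2C and 16C, and of the 1832 falls, 713 did. The 8C mean lay beyond the 16C mean in 703 rises and 1042 falls. At 4C the median share of the whole change already reached was 0.39 for rises and 0.45 for falls, and at 8C it was 1.0 and 1.05. These shares describe means of 3 arrays and carry no test.

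Genes differed in where the change fell. PRL had means of 7.68, 5.52, 4.30 and 4.88 in 2C, 4C, 8C and 16C, so most of its fall was reached at 4C. MGL had 11.65, 10.49, 7.52 and 8.92, and WNK9 9.31, 8.47, 5.60 and 6.34, with the lowest mean at 8C in both. OASA2 had 9.76, 11.37, 12.56 and 12.50 and was level between 8C and 16C. AT5G24080, at 4.63, 5.19, 5.36 and 8.44, and GH9C1, at 4.74, 4.83, 4.92 and 6.45, were high in 16C alone among the 4 means. EXPA7 and EXPA18 had the same shape, with 4.41 and 5.37 in 8C against 5.21 and 6.17 in 16C.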

How the data were processed

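The authors deposited 1 log2 value per probe set and array, which RMA produced, per the submitters' processing notes; its version is not given in the sources used here. RMA makes the distributions of arrays alike, so a change of total RNA per nucleus cannot be seen. No detection calls or scanner files were used, and the precision is limited by 3 arrays per class. Arrays were grouped by title. After leaving out 64 control probe sets, a linear model with 4 class means over all 12 arrays was estimated by limma (version 3.58.1, R 4.3.3). It used lmFit, the contrast 16C minus 2C, eBayes and Benjamini-Hochberg over 22746 probe sets at a threshold of 0.05. In simulated data with 50 probe sets changed at each size, 22% of changes of 0.5 and 68% of changes of 1 were called. False calls numbered 10. The simulation changed far fewer probe sets than were called in the data. Changes of these sizes that did not pass are thus not shown to be absent. Genes were named through the platform's probe table and, by Entrez ID, the TAIR10.1 gene table, which 13436 of 13513 single-gene probe sets matched. The unmatched ones include mitochondrial genes, which were counted among all genes but are not named here.

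Members and lists were chosen with earlier results of these data known, and 11 of the groups were formed after values were seen in this comparison. Of 48 listed groups, 42 had a measured gene, and 17 of these had 0 calls. Lists were made largely by symbol, and many members had no single-gene probe set. Most families and pathways are therefore covered in part. Named were the 20 largest called rises and falls whose arrays did not overlap, up to 4 called members of each list by p (or the member with the smallest p), markers, and, added later, the 20 largest in each direction with a symbol; genes outside this rule were named to complete a count or for comparison, after their values were seen. A gene family is not reported here. A grouping by protein motif was planned and not run, since no protein sequences were used. Alternatives were a fixed or random replicate block, trend and robust variances, array weights, probe set filters, cyclic loess, reference gene scaling, the 6 arrays alone, a 2-fold minimum, both control covariates, averaging 16C replicates 1 and 2, and leaving out each array.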

Additional observations from a re-analysis of the deposited data

How the results depend on the processing

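The count of 3238 called probe sets (1406 higher, 1832 lower) stayed within 1.5 times under the random block, trend and robust variances, array weights, cyclic loess, scaling to reference genes and leaving out the dimmest 40% or shared probe sets. It was 1668 (760 higher, 908 lower) over single-gene probe sets only, where fewer were tested, 2059 (928 and 1131) with the 6 arrays alone, 1491 (614 and 877) with a 2-fold minimum, 1577 (688 and 889) with 16C replicates 1 and 2 averaged, 523 (217 and 306) with the poly-A covariate and 0 (0 and 0) with the actin covariate. Leaving out 1 array gave 1598 to 3964 called, 698 to 1601 higher and 900 to 2363 lower. The cause was not tested. Same-numbered arrays of 16C and 2C had deviations that correlated at -0.06, 0.33 and 0.23, so the numbers were not taken as pairs; with the replicate block 3336 were called (1471 higher, 1865 lower), of which 2937 were among the 3238.

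Of 147 named genes, 129 were called, and 85 of these in every fit that left out 1 array. Of the called genes, 7 turned sign with the actin covariate, with changes of 0.22 for scpl48, 0.0072 for IQD24, -0.0585 for AT5G12340, 0.78 for iqd33, 0.0485 for SBT4.12, 0.51 for scpl31 and 0.15 for GH9B7, none of them called, and all other called genes lost their call. With the poly-A covariate 88 lost it, with 16C replicates 1 and 2 averaged 39, and with the 6 arrays alone 37, with no called gene turning sign. Genes that were not called turned sign under both covariates, such as LHCB4.1 with actin and GSO1 and BIN4 with poly-A. Signal over background was not measured, so falls to dim levels are bounded by the floor of the arrays.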

Other observations

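Probe sets without a single named gene were called more often than the rest. Of 9233 such probe sets 1525 were called, or 16.5%, against 12.7% of genes with a single-gene probe set, and 629 were higher and 896 lower in 16C. They were also brighter, with a median level of 5.85 over the 16C and 2C classes, against 5.03 for those with 1 gene.

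Of 146 genes with more than 1 probe set, 38 had a call on at least 1 of the pair. In 5 the probe sets were called in the same direction, and in AT3G57160 they were called in opposite directions, with changes of 0.53 and -0.46.

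Serine carboxypeptidase-like genes had calls on both sides. SCPL45 fell by 1.02 and passed in 12 of 12 fits that left out 1 array, but not with the 6 arrays alone (adjusted p = 0.0563). The other 3 called of 29 genes, scpl48 (-1.0), scpl31 (-1.71) and scpl47 (0.74), passed in 8, 7 and 8 of 12 (highest adjusted p = 0.0747 without 16C replicate 2, 0.0696 without 16C replicate 3 and 0.1 without 16C replicate 1). A group formed after values were seen held the genes named SAG or YLS, for senescence. All 3 measured were called higher, beside 5.76% of all genes. Beside SAG101 these were YLS5, with 1.0, which missed the threshold without 16C replicate 1 or 2 (adjusted p = 0.0647 and 0.0565), and SAG29, with 0.67, which is described above.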
